A study of Homo sapiens with 6 samples.

Results

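Mitochondrial ribosomal proteins are the nuclear-encoded proteins of the ribosome inside mitochondria, and their genes carry symbols that begin with MRPL for the large subunit and MRPS for the small subunit. The members were chosen by symbol, as protein-coding genes whose current symbol is MRPL or MRPS with a number and which have a probe set annotated to that symbol alone. Measured values entered the choice at 2 points: each gene was read from its brightest probe set, by mean log2 signal, and a gene had to exceed the background floor, a signal of 16.2, on at least 1 array. This gave 75 genes of the 19775 with a probe set of their own, 48 of the large and 27 of the small subunit. All 75 were above the floor on all 6 arrays, so the floor removed none, and nothing lies just outside it. The members nearest to it at their brightest were MRPL21 with a highest signal of 62.1, MRPL55 with 67.4 and MRPL38 with 68.1, and 53 members had a signal of at least 100 on every array. RefSeq lists 77 such coding genes, and the other 2, MRPL53 and MRPS24, are read only by probe sets that they share with another symbol.

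Mitochondrial ribosomes translate the few membrane proteins that the mitochondrial genome encodes, all of them subunits of the respiratory chain and the ATP synthase. Their RNAs come from the mitochondrial genome, but all their proteins are translated in the cytosol and imported, so assembly depends on nuclear genes. Many of these proteins descend from those of the bacterial ribosome, and the others were added in the mitochondrial lineage. In absorptive enterocytes, respiration supplies the energy for active nutrient transport.

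The cells were Caco-2, a human colorectal adenocarcinoma line that forms a polarised, enterocyte-like monolayer. They had grown for 14 days on a permeable membrane, which was then placed over THP-1 cells, a human monocytic leukaemia line turned macrophage-like by PMA (phorbol myristate acetate) for 4 days in plates of 12 wells. Caco-2 RNA was hybridised to Affymetrix arrays at 0, 1, 3, 6, 24 and 48 h of coculture, with a single unreplicated array per time. The question was how Caco-2 expression moves with time of coculture. Every comparison below is a difference between single arrays, has n = 1 and carries no test, and all ratios to 0 h share the 1 array of that time. Time in coculture cannot be told apart from handling or time in culture, since no array of Caco-2 cells without THP-1 cells was analysed here. In RNA from whole cultures, fewer cells that express a gene and less RNA per cell cannot be told apart either.

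The arrays had the same overall signal, a trimmed mean of 93.8, and 12006 to 12280 genes above the floor. All 10 Caco-2 and enterocyte markers were above the floor on every array, with summed signals of 20828 to 23497. Under that sum single markers moved in both directions. From 0 to 48 h FABP1 went from 2086 to 478, SI from 556 to 123 and APOA1 from 5216 to 2505. Over the same span EPCAM went from 4159 to 5490, KRT18 from 3583 to 5274 and KRT20 from 207 to 412. Of 11 macrophage markers with a probe set, 5 to 8 were above it with sums of 530.0 to 876. The 5 above it on every array were LYZ at 199 to 412, AIF1 at 43.0 to 360, LAPTM5 at 48.8 to 141, CD14 at 41.9 to 59.8 and ITGAM at 16.3 to 24.7. PTPRC and SPI1, which define blood cells and macrophages, were under it on all arrays. AIF1 was brightest at 0 h and LYZ at 48 h, and their part in the results was not tested. The 3' over 5' ratio of the ACTB control probe sets, a measure of RNA integrity and labelling, was 51.2, 27.7, 22.9, 17.99, 27.9 and 37.0 at 0, 1, 3, 6, 24 and 48 h. It was thus highest on the 0 h array and lowest on the 6 h array, as were many members, and its part in the results was not tested. That of GAPDH lay between 3.54 (6 h) and 4.72 (24 h).

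Signals of most mitochondrial ribosomal protein genes were lower than at 0 h throughout the coculture, most of all at 6 h. Over the 75 members the median log2 ratio to 0 h was -0.28, -0.51, -0.64, -0.38 and -0.35 at 1, 3, 6, 24 and 48 h. Against the 1 h array in place of that of 0 h, which had the highest ACTB ratio, the medians were -0.30, -0.37, -0.12 and -0.11 at 3, 6, 24 and 48 h. Over the 14623 genes above the floor on at least 1 array it was 0.00, -0.02, -0.04, 0.00 and -0.01 at the same times, against 0 h. Over the 10446 genes above the floor on all arrays, as all members were, it was -0.04, -0.10, -0.14, -0.07 and -0.10. Below 0 h were 62, 68, 72, 59 and 57 of the 75 members, beside at most 59.7% of those 10446 genes, reached at 6 h. The shift was broad and mostly small, with the middle portion of members at 6 h between -0.98 and -0.39 (the first and the third quartile).

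A gene counts below as lower or higher when it differed at least 2-fold from 0 h with the brighter array above the floor. No member was lower at 1 h, where 1.44% of all measured genes were. At 3 h 12 members were lower beside 3.52% of all genes, at 6 h 18 beside 6.45%, at 24 h 8 beside 6.14% and at 48 h 11 beside 6.14%. As shares of the 75 members these counts are 16%, 24%, 10.7% and 14.7%. No member was higher at any time, whereas 1.9%, 3.1%, 4.23%, 3.95% and 3.82% of all measured genes were. With the comparison limited to genes at a signal of 100 or more on the brighter array, 15 of 60 members were lower at 6 h beside 6.82% of 7699 genes. The count at 6 h was 11 with the floor value added as a pseudocount, and 8 against the 1 h array, beside 3.19% of all measured genes. It was 7 of 42 once the less specific probe sets (_x_at and _s_at) were left out. For the pseudocount and for the 42 members the share of all genes was not computed. In all, 24 of the 75 members were lower at 1 or more of the 5 times and 51 at none, beside 12.9% of all measured genes lower at 1 or more.

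**Figure D1:**
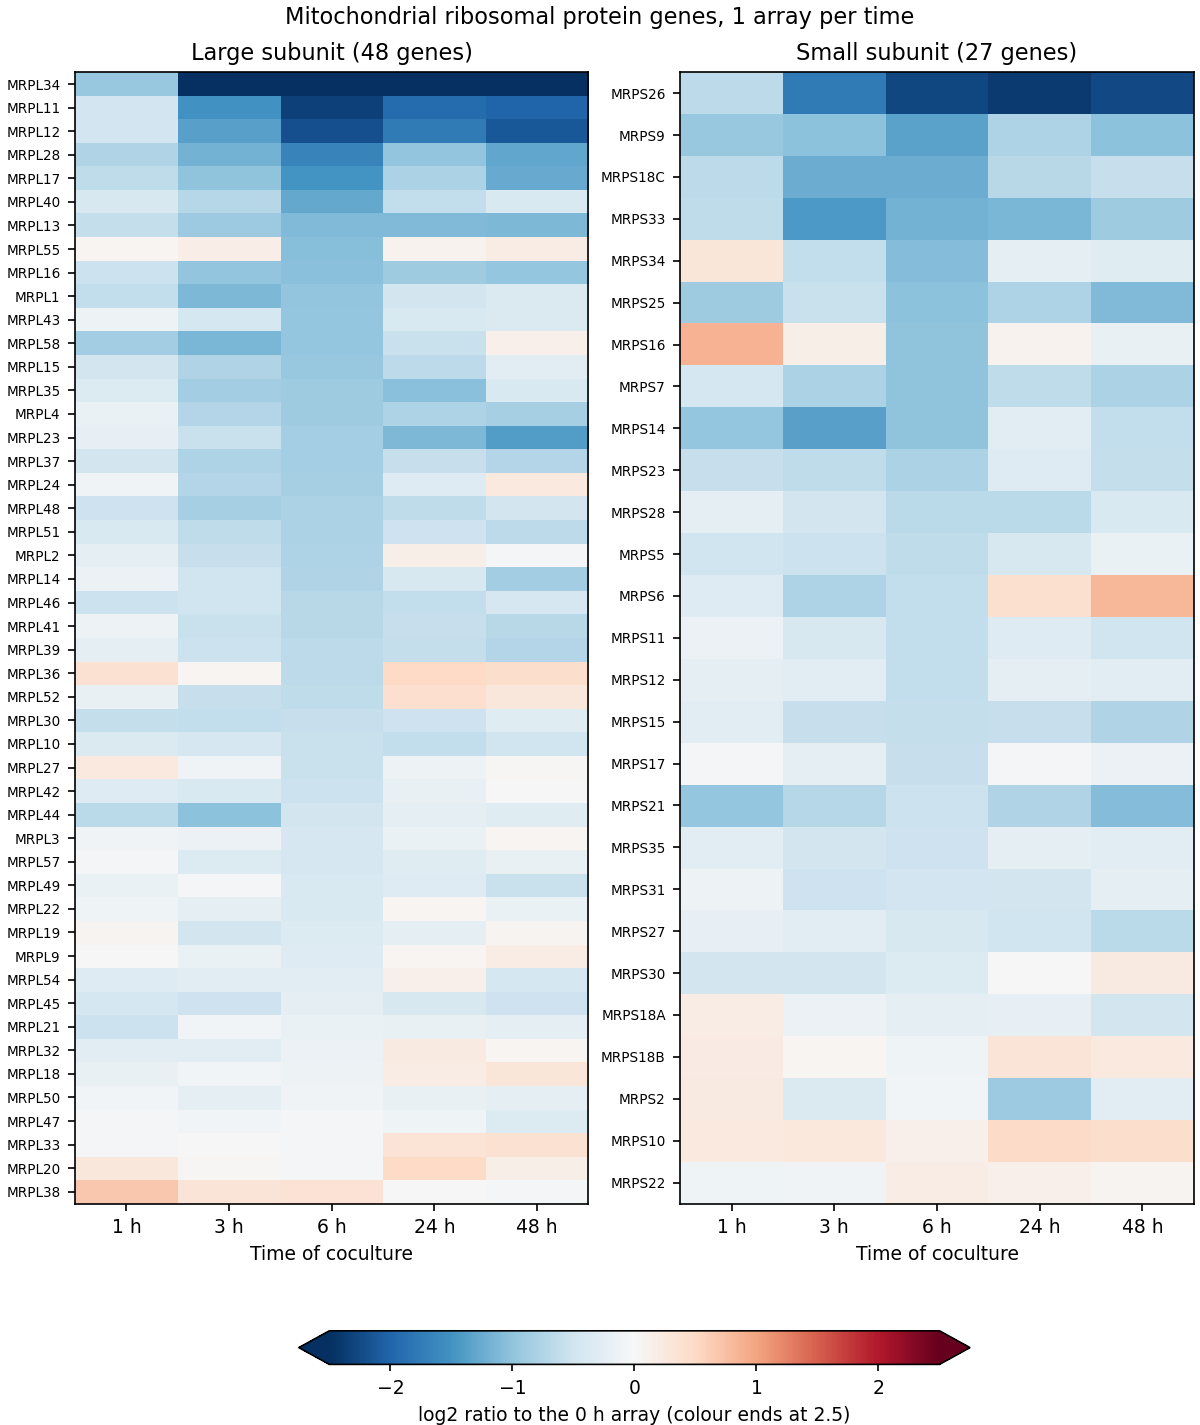
Log2 ratio of each of the 75 members to the single 0 h array (colour) at 1, 3, 6, 24 and 48 h, with large subunit genes on the left and small subunit genes on the right, ordered by the ratio at 6 h. Blue (lower than at 0 h) fills most of the 6 h column, where 72 of 75 members are below 0, and the dark rows at the top are MRPL34, MRPL11, MRPL12 and MRPS26.

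The time course can also be read from the signals without a common baseline. The lowest of the 6 signals was that of the 6 h array for 37 members, of 48 h for 15, of 3 h for 12, of 1 h and 24 h for 5 each and of 0 h for 1. Among the 10446 genes above the floor on all arrays, 22.4% had their lowest signal at 6 h. The highest signal was that of 0 h for 49 members, and for 30.6% of those genes. From 1 to 6 h the median change was -0.37, with 64 members below 0 and 8 at least 2-fold lower. Of all measured genes 50.3% were below 0 and 3.19% at least 2-fold lower, with a median of -0.004. From 6 to 24 h the median of the members was 0.31, with 60 members above 0 and 5 at least 2-fold higher. Of all measured genes 49.4% were above 0 and 2.13% at least 2-fold higher, with a median of 0.00. From 24 to 48 h the median of the members was -0.06, 29 members were above 0, and none differed 2-fold. All measured genes had a median of 0.00 over that step, for which their shares were not computed. The 5 members at least 2-fold higher at 24 than at 6 h were MRPL55, MRPL36, MRPS16, MRPL52 and MRPS6, with log2 changes of 1.16, 1.15, 1.10, 1.05 and 1.02.

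The median of each subunit was lowest at 6 h. The 48 large subunit genes had medians of -0.26, -0.52, -0.67, -0.39 and -0.34 at 1, 3, 6, 24 and 48 h, and the 27 small subunit genes -0.28, -0.51, -0.62, -0.33 and -0.38. The medians thus differed (large minus small) by -0.05, -0.06 and 0.04 on the last 3 arrays, and whether the subunits differ could not be tested. Of the large subunit 7, 9, 6 and 7 genes were lower at 3, 6, 24 and 48 h, and of the small subunit 5, 9, 2 and 4. As shares these are 14.6%, 18.8%, 12.5% and 14.6% of the large and 18.5%, 33.3%, 7.41% and 14.8% of the small subunit. Among all measured genes the shares were 3.52%, 6.45%, 6.14% and 6.14%, so the small subunit was near that share at 24 h. MRPS18A and MRPS30 sit in the large subunit of the human mitochondrial ribosome despite their names. Counted there, they leave the medians at 6 h at -0.65 for the large and -0.62 for the small subunit. Genes with a bacterial homolog and those specific to mitochondria had medians of -0.64 and -0.64 at 6 h. Of the former 13 of 47 were lower then, and of the latter 5 of 28.

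**Figure D2:**
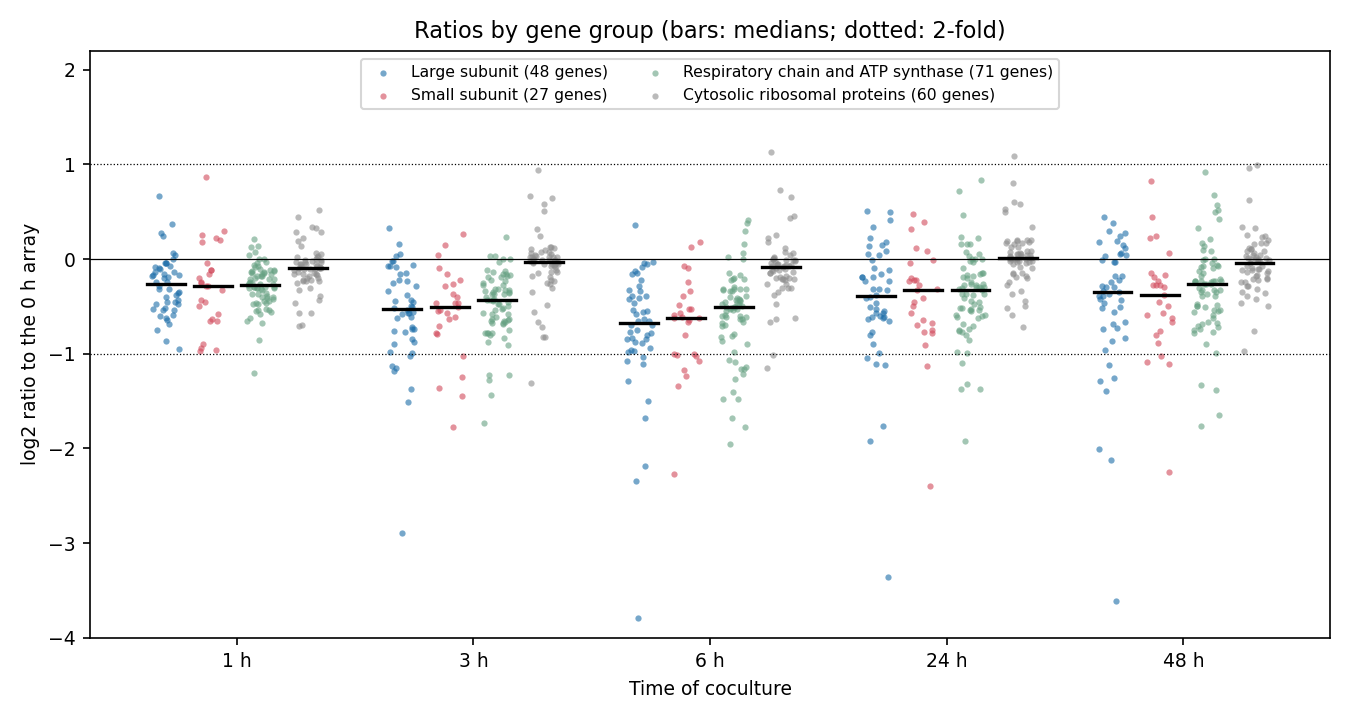
Log2 ratio to the 0 h array at 1, 3, 6, 24 and 48 h for large subunit members (48 genes), small subunit members (27), respiratory chain and ATP synthase subunits (71) and cytosolic ribosomal proteins (60). Each point is 1 gene, bars are medians and dotted lines mark a 2-fold difference. At 6 h the medians are -0.67, -0.62, -0.51 and -0.08 in that order.

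A group of 4 genes stood far below the others in their brightest probe sets, all of the less specific _s_at type. With _x_at and _s_at probe sets left out, MRPL34, MRPL11 and MRPS26 had no reading. MRPL12 was then at 0.68 at 6 h, from a dim probe set. The windows around the starts of these 4 genes are shown here because the genes carry the largest differences. These windows can be set beside those of members whose brightest probe set differed less than 2-fold. MRPL34, which encodes the homolog of the bacterial protein L34 in the large subunit, had signals of 486, 251, 65.7, 35.3, 47.3 and 39.8 at 0, 1, 3, 6, 24 and 48 h. Its signal dropped from 0 to 6 h and stayed low on both later arrays. Its log2 ratio was -2.89 at 3 h and -3.79 at 6 h, the latter 13.8-fold lower, and no other of the 14623 measured genes had a lower ratio at either time. MRPL11, of the stalk base where translation factors bind, had signals of 673, 486, 237, 133, 177 and 168. Its log2 ratio was -2.34 at 6 h and -1.92 at 24 h. MRPL12, of the stalk that recruits those factors, had signals of 381, 275, 148, 83.6, 112 and 87.3, which put it at -2.19 at 6 h and -2.13 at 48 h. MRPS26, a small subunit protein without a bacterial homolog, had signals of 3433, 2178, 1004, 710.4, 653 and 720.1, so its log2 ratio was -2.27 at 6 h and -2.25 at 48 h. In all 4 genes each array from 3 h on was below those of 0 and 1 h. The windows, from RefSeq on GRCh38.p14, run 5' to 3' along the gene from 250 bases before the annotated start to 50 after it. They lie at chr19:17305622-17305921, plus strand, for MRPL34 (the most downstream of its 4 annotated starts). The others are chr11:66438799-66439098, minus strand, for MRPL11, chr17:81703117-81703416, plus strand, for MRPL12 and chr20:3045802-3046101, plus strand, for MRPS26. Capitals mark matches, on either strand, to the ETS or YY1 motif described further on.
MRPL34: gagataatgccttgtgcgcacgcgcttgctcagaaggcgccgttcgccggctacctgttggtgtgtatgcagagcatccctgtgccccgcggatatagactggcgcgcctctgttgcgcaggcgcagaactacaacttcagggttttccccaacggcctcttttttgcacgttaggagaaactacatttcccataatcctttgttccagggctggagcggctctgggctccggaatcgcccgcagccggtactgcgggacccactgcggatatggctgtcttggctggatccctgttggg
MRPL11: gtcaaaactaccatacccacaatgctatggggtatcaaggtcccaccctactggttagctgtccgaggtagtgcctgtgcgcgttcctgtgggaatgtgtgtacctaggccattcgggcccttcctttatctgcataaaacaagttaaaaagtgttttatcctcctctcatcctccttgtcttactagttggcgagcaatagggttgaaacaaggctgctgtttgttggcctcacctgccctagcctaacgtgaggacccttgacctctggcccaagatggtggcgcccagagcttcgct
MRPL12: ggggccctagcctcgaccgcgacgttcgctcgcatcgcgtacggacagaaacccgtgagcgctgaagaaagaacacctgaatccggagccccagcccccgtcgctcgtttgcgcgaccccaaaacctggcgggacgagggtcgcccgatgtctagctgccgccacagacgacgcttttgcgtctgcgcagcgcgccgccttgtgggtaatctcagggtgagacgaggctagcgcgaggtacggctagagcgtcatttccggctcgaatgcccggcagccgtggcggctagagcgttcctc
MRPS26: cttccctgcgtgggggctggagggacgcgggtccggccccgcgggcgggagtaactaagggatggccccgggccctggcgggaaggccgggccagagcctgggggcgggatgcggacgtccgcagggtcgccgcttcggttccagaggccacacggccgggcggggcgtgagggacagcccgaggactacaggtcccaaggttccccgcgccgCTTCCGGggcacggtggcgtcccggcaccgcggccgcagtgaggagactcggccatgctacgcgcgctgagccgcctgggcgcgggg

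Several members were less far below 0 h at 6 h and still low at 24 or 48 h, of which 5 are given here. MRPL28 had signals of 91.3, 54.4, 40.1, 28.5, 45.8 and 37.3 and a log2 ratio of -1.68 at 6 h. MRPL17 had 365, 234, 183, 129, 210.2 and 153, 2.83-fold lower at 6 h and at -1.26 at 48 h. MRPS9, of the head of the small subunit, had 354, 184, 174, 140.2, 208 and 174, with -1.34 at 6 h. MRPL13 had 698, 459, 374, 324, 324 and 321, which put it at -1.11, -1.11 and -1.12 at 6, 24 and 48 h. MRPS33 was lowest at 3 h, at -1.44, and was at -1.17, -1.13 and -0.88 on the later arrays. In these 5 genes every coculture array was below the 0 h array.

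Other members were low at 3 or 6 h and nearer to 0 h later. MRPS14, of the small subunit head, had signals of 476, 244, 186, 237, 393 and 309, so that its ratio was -1.36 at 3 h and -0.28 at 24 h. The second MRPS14 probe set, with signals of 46.2 to 128, did not share the value at 24 h. It was at -1.48, -1.004 and -0.38 at 6, 24 and 48 h. MRPL40 went from 704 at 0 h to 289 at 6 h and 539 at 48 h, with ratios of -1.28 and -0.38. MRPL58, which encodes a peptidyl-tRNA hydrolase that releases stalled chains, had ratios of -1.15 at 3 h and 0.12 at 48 h. MRPL1, at the stalk where tRNAs leave, had -1.13 at 3 h and -0.37 at 48 h. MRPL44, which carries an RNase III-like fold, had -1.03 at 3 h and -0.30 at 48 h. The remaining members past 2-fold at 6 h were MRPL16 at -1.04, MRPS7 at -1.004, MRPS18C at -1.24, MRPS34 at -1.08, MRPL55 at -1.07, MRPS16 at -1.01 and MRPS25 at -1.02. MRPS25 was also lower at 48 h, at -1.11, whereas MRPL55, with signals of 28.1 to 67.4, differed at 6 h alone. The dimmer MRPS25 probe sets, with signals of 74.5 to 121 and of 68.8 to 126, did not reach 2-fold at either time. They were at -0.12 and -0.85 at 6 h and at -0.55 and -0.20 at 48 h. MRPS16 was the member farthest above 0 h at 1 h, at 0.87, with signals of 175, 319.9, 195, 86.9, 186 and 154. Its second probe set, of 136, 95.2, 80.0, 72.6, 111 and 105, went the other way at 1 h, with ratios of -0.52, -0.77 and -0.91 at 1, 3 and 6 h. The probe sets of MRPS16 were thus both low at 6 h but did not share the value above 0 h.

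The signal was lowest at 48 h for 15 members and at 24 h for 5, of which 4 are given here. MRPL23, a large subunit protein of the peptide exit, had signals of 1530.4, 1333, 1034, 851, 703 and 585. Each array was thus lower than the one before it, and the log2 ratios at 24 and 48 h were -1.12 and -1.39. MRPS21 had a ratio of -0.97 at 1 h and of -1.09 at 48 h, with signals no higher than 84.7. MRPL35 passed 2-fold at 24 h alone, at -1.04, with signals of 36.9 to 75.9, but was at 0.031 in its _at probe set. MRPS15, among the brightest members, went from 2025 at 0 h to 1195 at 48 h, a ratio of -0.76.

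**Figure D3:**
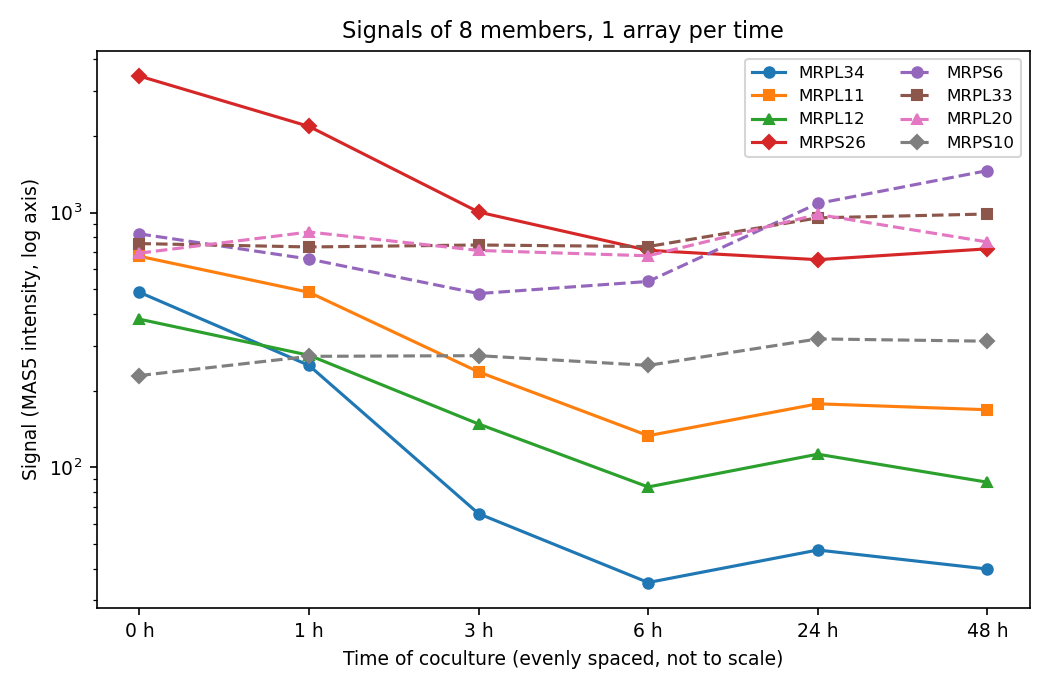
MAS5 signal (log axis) of 8 members on the 6 arrays, at 0, 1, 3, 6, 24 and 48 h; solid lines are the 4 members with the lowest ratios at 6 h and dashed lines are 4 members that were above 0 h at 48 h. MRPL34 goes from 486 to 35.3 and MRPS26 from 3433 to 710.4 by 6 h, while MRPS10 stays between 229 and 319.

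The members that were not lower include abundant and dim genes. MRPS10, of the small subunit head, was above 0 h on every later array in its brightest probe set. The signals were 229, 272, 274, 251, 319 and 312, with a highest ratio of 0.48 at 24 h. Its dimmer probe sets were at -0.46 and -0.35 at 1 h and at -0.41 and 0.20 at 6 h. MRPL20 had 693, 838, 709.6, 676, 983 and 766, and MRPL33 had 755, 732, 745.5, 735, 953 and 986. MRPL47 had ratios between -0.34 and -0.04 in its brightest probe set but -1.22 at 6 h in its dim second. MRPL38, with signals of only 42.0 to 68.1, was at 0.67 at 1 h and at 0.36 at 6 h. MRPS22 was at 0.18 at 6 h in its brightest probe set and at -0.18, -0.38 and 0.16 in the others, all of them _x_at. MRPL36, the homolog of bacterial L36, had 1320 at 0 h, 839.7 at 6 h and 1801 at 48 h, which is -0.65 and then 0.45. MRPL57 and MRPL3, the brightest members with MRPS15, were no lower than -0.43 at any time.

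MRPS6 was the member farthest above 0 h at 48 h. Its signals were 824, 657, 481, 536, 1085 and 1461, so it was below 0 h up to 6 h and at 0.83 at 48 h. In RefSeq MRPS6 shares its start, position 34073578 of chromosome 21 on GRCh38.p14, with SLC5A3, which encodes the sodium-dependent myo-inositol transporter. SLC5A3 had ratios of -0.50, -0.20, 0.24, 0.98 and 1.34 at 1, 3, 6, 24 and 48 h. Both genes were thus highest at 48 h, and whether the MRPS6 probe set reads transcripts of SLC5A3 was not tested.

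The 3 members that share descent from the bacterial protein S18 differed in ratio. MRPS18C was the lowest of them, with signals of 223, 142, 94.0, 94.5, 138 and 151. MRPS18A had a ratio of -0.24 and MRPS18B of -0.10 at 6 h, and MRPS18B was at 0.32 at 24 h. MRPS12, the decoding-centre homolog of bacterial S12, had ratios of -0.24, -0.29, -0.61, -0.23 and -0.27, and MRPS30 had -0.33 at 6 h and 0.23 at 48 h. The gene once called MRPS36 is now KGD4, a subunit of the 2-oxoglutarate dehydrogenase complex, and is no member here. Its probe set had signals of 1227 at 0 h and 836 at 6 h, a ratio of -0.55. The probe set that MRPS24 shares with the read-through gene URGCP-MRPS24 had ratios of -0.09, -0.23, -0.89, -0.79 and -1.34.

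Many members could be read by more than 1 probe set, which gives a second measurement on the same arrays. There were 140 probe sets for the 75 members, 135 of them above the floor, and 34 members had at least 2 above it. The second-brightest probe set of these 34 had medians of -0.29, -0.39, -0.43, -0.10 and -0.25, and was below 0 h in 23, 24, 28, 19 and 23 genes. The brightest of the same 34 had medians of -0.18, -0.49, -0.61, -0.26 and -0.28. In 8 members the second probe set had a mean signal of at least 100, and in all 8 it was below 0 h at 6 h, with a median of -0.43. Only that of MRPL9 was then past 2-fold, at -1.16, where the brightest probe set of MRPL9 gave -0.32. The median absolute difference between both was 0.39 at 6 h in these 8 genes and 0.35 in 2321 genes with such a pair among all genes.

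Dim second probe sets often gave other values. For MRPL12 the second probe set had signals of 5.42 to 25.99 and a ratio of 0.68 at 6 h, against -2.19 for the brightest. For MRPS26 it had 12.6 to 24.2 and -0.58, against -2.27. MRPL34 and MRPL11 have 1 probe set each, so none of the 4 largest differences has a second probe set with a signal of 100. MRPS18C had ratios of 0.54 and -0.72 from its dimmer probe sets at 6 h, at signals of 9.74 to 68.0. MRPL44 was at 1.21 in its second, at 20.8 to 70.6, and MRPL23 at 0.46 at 48 h in a probe set with signals of 4.94 to 33.8. Probe sets of MRPL19, MRPL30, MRPL41 and MRPS15 also differed by at least 1.5 at some time.

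**Figure D4:**
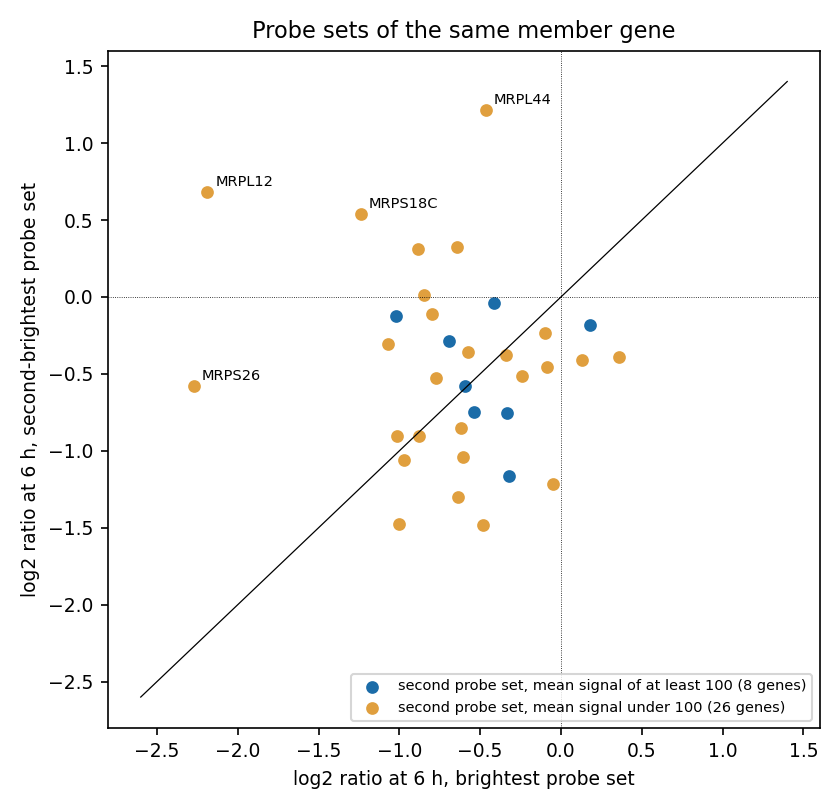
Log2 ratio at 6 h of the brightest (horizontal axis) and second-brightest (vertical axis) probe set of the 34 members with at least 2 above the floor, coloured by the mean signal of the second; the line marks equal ratios. All 8 points with a second signal of at least 100 lie below 0 on the vertical axis, and the named points, such as MRPL12 at 0.68 and MRPL44 at 1.21, belong to second probe sets under 100.

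Windows around the start were found in RefSeq for 67 members, 83 windows in all, and 8 members had none. They were searched on both strands for letters that nuclear genes of mitochondrial proteins often carry, and a match is a description, not a site. The letters CCGGAAG, a core for ETS factors such as GABPA, stood in 38.6% of the members' windows and in 12.8% of the 22199 windows of coding genes. The letters AAGATGGC, part of the element of YY1 and of TISU, an initiator found in mRNAs with very short leaders, stood in 26.5% and 3.53%. In 15 of the 20 members with that match it lay after the start on the gene's own strand. The letters GCGCATGC, a core for NRF1, stood in 7.23% and 3.74%, the E-box CACGTG in 10.8% and 8.34%, and TATAAA in 3.61% and 9.47%. The ETS letters end in the AAG with which the YY1 letters begin, so matches to both could share those bases. Of the 67 members, 8 had both the ETS and the YY1 letters and 26 had neither.

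Members with the YY1 letters were closer to 0 h. The 20 members with a match had medians of -0.18, -0.24, -0.36, -0.14 and -0.21 at 1, 3, 6, 24 and 48 h, and the 47 without -0.32, -0.61, -0.80, -0.45 and -0.38. At 6 h 1 of the 20, MRPS7, was lower, and 16 of the 47. Over the 10817 measured coding genes with a window, 4.77% of the 629 with the letters and 6.53% of the rest were lower at 6 h, with medians of -0.13 and -0.05. The split was looked at after the values were known, and it depends on the probe set. At 6 h, where alone the alternatives were run, it kept its direction in 11 of 12 settings. Of these, the limit to genes above the floor on all arrays and the lower floor left every member's value as it was. The common median shifted both medians alike, so these settings could not change the split. The symbols as annotated also left it at -0.44. The difference of -0.44 between the medians (without minus with) came to -0.14 with the 1 h array as baseline and to -0.16 once _x_at and _s_at probe sets were left out. However, with the second-brightest probe set of 10 and 21 genes it turned, to medians of -0.63 with and -0.36 without the letters. For the ETS letters the differences were smaller, with medians of -0.19, -0.51, -0.61, -0.23 and -0.30 in 29 members with them and -0.28, -0.51, -0.63, -0.36 and -0.39 in 38 without. MRPL20, MRPL47 and MRPS10, near or above 0 h at 6 h in their brightest probe sets, carry both. The second probe set of MRPL47, with signals of 25.5 to 59.3, was at -1.22 at 6 h. For MRPS10 the second was at -0.41 and the third at 0.20. The windows of these genes are shown to set beside those of MRPL34, MRPL11, MRPL12 and MRPS26. They lie at chr1:1407244-1407543, minus strand, chr3:179604589-179604888, minus strand (1 of 2 annotated starts), and chr6:42217812-42218111, minus strand.
MRPL20: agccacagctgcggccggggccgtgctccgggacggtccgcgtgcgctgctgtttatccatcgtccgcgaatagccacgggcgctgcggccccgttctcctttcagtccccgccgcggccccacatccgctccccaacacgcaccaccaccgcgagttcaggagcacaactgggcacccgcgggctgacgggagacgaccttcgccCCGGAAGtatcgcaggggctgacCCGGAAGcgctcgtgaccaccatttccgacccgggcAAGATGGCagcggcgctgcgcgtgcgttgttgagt
MRPL47: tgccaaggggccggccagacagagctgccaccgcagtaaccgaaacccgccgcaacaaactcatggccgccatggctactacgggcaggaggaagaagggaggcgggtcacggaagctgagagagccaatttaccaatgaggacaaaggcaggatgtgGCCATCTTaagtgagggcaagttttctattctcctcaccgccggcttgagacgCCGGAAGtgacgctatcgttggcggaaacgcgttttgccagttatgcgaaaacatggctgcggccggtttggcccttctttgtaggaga
MRPS10: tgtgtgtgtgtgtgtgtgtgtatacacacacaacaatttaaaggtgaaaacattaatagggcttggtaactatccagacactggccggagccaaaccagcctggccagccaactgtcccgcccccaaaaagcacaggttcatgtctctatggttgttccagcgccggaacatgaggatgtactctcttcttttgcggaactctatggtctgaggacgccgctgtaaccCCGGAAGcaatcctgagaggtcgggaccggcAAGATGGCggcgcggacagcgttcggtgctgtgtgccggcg

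In the capitals, CCGGAAG or its complement is the ETS match and AAGATGGC or its complement the YY1 match. The first base of the YY1 letters lies 16 bases into MRPL20 and 10 bases into MRPS10, in both cases counted from 1 at the start. In MRPL47 it lies before the start on the other strand. MRPS26 has 1 ETS match and the windows of MRPL34, MRPL11 and MRPL12 have no exact match to either. Only exact letters were searched. MRPL11 has AAGATGGT after its start, which differs from the YY1 letters in the last base. Other members with both sets of letters were not all near 0 h, among them MRPL51 at -0.79 and MRPL52 at -0.63 at 6 h.

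**Figure D5:**
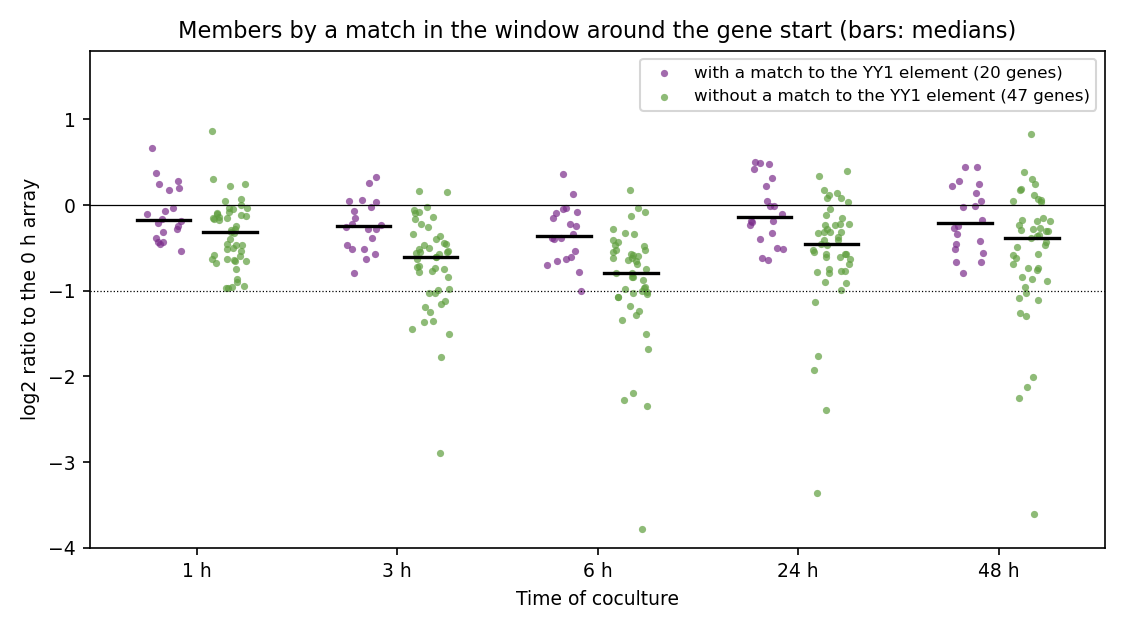
Log2 ratio to the 0 h array of 67 members at 1, 3, 6, 24 and 48 h, split by a match to the YY1 element in the window around the start (20 genes with, 47 without); bars are medians and the dotted line marks 2-fold lower. At 6 h the medians are -0.36 and -0.80, and the points under -2 belong to genes without an exact match.

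Several members share a promoter region with a gene on the other strand. A coding gene starting head to head within 1000 bases was found for 20 of the 67 members with a window, 29.9%, and for 12.3% of 15843 coding genes. Of these 20 partners 19 were measured, 10 were below 0 h at 6 h and none was past 2-fold lower. Of all measured genes 52.6% were below 0 h and 6.45% were lower at that time. The median of the partners was -0.13, against -0.58 for the 19 members opposite them. MRPS12 and SARS2, the mitochondrial seryl-tRNA synthetase, start 181 bases apart and had ratios of -0.61 and -0.66. MRPL46 and MRPS11, both members, had -0.70 and -0.62, and as partners of each other they count on both sides. MRPL40 and HIRA, a histone chaperone, went opposite ways, with -1.28 and 1.68 at 6 h, and the signals of HIRA were 143, 357, 279, 457, 330.0 and 259. MRPS7 and GGA3 had -1.004 and 0.44. The windows of the members had a median GC content of 60%, beside 64.3% for measured genes, and the correlation of GC content with the ratio at 6 h across the 67 members, which share the same 2 arrays, was -0.16.

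Genes that act with the mitochondrial ribosome were set beside the members from lists chosen by function. Of 4 ribosomal proteins with other names and the insertase OXA1L, CHCHD1, a small subunit protein, had signals of 1178, 645, 371, 437, 447 and 583 and was lower at 3, 6, 24 and 48 h. GADD45GIP1, of the large subunit, was lower at 48 h, at -1.12, and OXA1L had ratios of -0.68 to -0.10. DAP3 and PTCD3, of the small subunit, stayed between -0.13 and 0.04. Of 15 mitochondrial translation factors and mRNA-binding proteins, 3, 2, 1 and 0 were lower at 3, 6, 24 and 48 h, beside 3.52%, 6.45%, 6.14% and 6.14% of all measured genes. Their median at 6 h was -0.65. MTIF3, an initiation factor, was at -1.60 at 6 h, MTRES1, which rescues stalled ribosomes, at -1.70 at 3 h, and SLIRP, which stabilises mitochondrial mRNAs, at -1.13 at 3 h.

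Factors that build the ribosome were closer to 0 h. Of 27 assembly and rRNA modification genes, the 6 h array had 2 lower (7.41%) and 1 higher (3.7%), near the 6.45% and 4.23% of all measured genes, and a median of -0.37. METTL15, an rRNA methyltransferase, was at -1.51 and YBEY, an endoribonuclease, at -1.05 at 6 h, and TRUB2, a pseudouridine synthase, at -1.61 at 48 h with signals of 16.5 to 50.3. Of 18 mitochondrial aminoacyl-tRNA synthetases none was lower at 6 h, where the median was -0.30. CARS2 was lower at 24 and 48 h, at -1.12 and -1.18. PARS2 at -1.34 and MARS2 at 1.02 passed 2-fold at 1 h, both at signals under 60. The list called mitochondrial DNA genes further on held 17 nuclear genes of mitochondrial DNA transcription and upkeep and of their regulators. The 6 h array had 1 of them lower and 1 higher (5.88% each), the latter the regulator MYC, and a median of -0.03. TEFM, an elongation factor, was at -1.03 then. MYC, a growth regulator, was at 1.53, with signals of 611, 798, 1255, 1760, 861 and 437, and TWNK, the mitochondrial DNA helicase, was at 0.96 at 24 h.

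The listed subunits of the respiratory chain and the ATP synthase are all nuclear-encoded and imported, as the members are. They had medians of -0.27, -0.44, -0.51, -0.33 and -0.26 over 71 genes. At least 2-fold lower were 1, 5, 13, 5 and 4 of them at the 5 times, and none was higher. As shares these are 1.41%, 7.04%, 18.3%, 7.04% and 5.63%, beside 1.44%, 3.52%, 6.45%, 6.14% and 6.14% of all measured genes, so that they were near the background at 1, 24 and 48 h. NDUFS3 of complex I was at -1.96, NDUFA13 at -1.78 and ATP5MC2 of the ATP synthase at -1.68 at 6 h, the last with signals of 16.8 to 76.0. Cytosolic ribosomal proteins, which form the other ribosome of the cell, had medians of -0.09, -0.03, -0.08, 0.02 and -0.04 over 60 genes. Of these 2 were lower (3.33%) and 1 higher (1.67%) at 6 h, RPS25 at -1.15 and RPS24 at 1.13 among them, and RPL27A was at 1.09 at 24 h.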

How the data were processed

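Total RNA of Caco-2 cells at 6 times of coculture was labelled from 4 µg and hybridised, per the labels' protocols, with 1 array per time. The deposited values are linear intensities, 1 per probe set and array, made with MAS5 per the submitters' processing notes. The MAS5 version and scaling target were not given in the sources used here. The algorithm weighs perfect-match probes against mismatch probes and then scales every array, so dim values carry much noise, and differences are relative to the rest of the array.

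Values below the pooled 50th percentile (16.2) were raised to that floor before log2, and no further scaling was applied. Of 54675 probe sets, 41091 named 1 gene after symbols were updated by gene identifier through RefSeq (GRCh38.p14). Each gene was read from its brightest probe set (mean log2 signal), and every later array was divided by that of 0 h. No test was possible with n = 1. The code was tested on simulated data (Python 3.11.15, pandas 2.3.3, numpy 2.4.6).

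The members and lists were chosen with earlier results of these data known. Members named are those at least 2-fold from 0 h at any time, the 3 largest rises and falls at each time, the 3 brightest and 3 dimmest, those whose probe sets differ by at least 1.5, and 8 always named. Up to 3 genes with the largest ratio were named from each list. MRPL33, MRPL47, MRPL9, MRPL46, MRPS11, MRPL51, MRPL52 and the partner genes were named after their values were seen. The 15 alternatives concern scaling, floor, probe set, baseline, size rule, symbols and subunit. The split by YY1 letters was added after seeing the data.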

Additional observations from a re-analysis of the deposited data

How the results depend on the processing

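All results rest on 1 array per time, so neither leaving out a replicate nor any replicate block could be fitted. No paired analysis was possible because each time has a single array. Of the 15 alternatives, all 187 recomputed medians of the members or a subunit stayed below 0. Among these, the limit to genes above the floor on all arrays and the lower floor could not change a member's value. All 75 members were above the floor on every array. Both other scalings, both other floors, the limits to genes above the floor on all arrays or at 100 or more, the symbols as annotated and the subunits by structure moved no median by 0.2 and no count beyond 1.5-fold. Of 2175 recomputed ratios of named members, 170 moved by at least 0.5. A further 13, all at least 2-fold below 0 h in the main reading, turned positive. Smaller ratios that changed sign are not counted among the 13 and are not listed. An example is MRPL44 at 6 h, which went from -0.47 to 1.21 with the second-brightest probe set. The medians and counts that moved and the 13 ratios that turned positive follow, with times in brackets, and their causes were not tested. With the floor value as a pseudocount, members lower numbered 11 (6 h). With the probe sets of each gene joined as their median, members higher numbered 1 and 2 (24 and 48 h). Medians were -0.48, -0.48 and -0.18 (3, 6 and 24 h) for subunits with other names, -0.40 (6 h) for translation factors and 0.028 (24 h) for synthetases. Ratios that turned positive were 0.44 and 0.45 (3 and 6 h) for MRPS18C and 0.031 (24 h) for MRPL35. With the second-brightest probe set (34 members), members lower numbered 1, 2, 7, 2 and 1 (1, 3, 6, 24 and 48 h) and members higher numbered 2, 1, 2 and 3 (1, 6, 24 and 48 h). Medians were -0.059, -0.48, 0.0383, -0.0087 and 0.46 (1, 3, 6, 24 and 48 h) for subunits with other names, -0.18, -0.28 and -0.20 (3, 6 and 24 h) for translation factors, 0.30, 0.31 and 0.21 (3, 6 and 48 h) for mitochondrial DNA genes and -0.20, -0.22, -0.097 and 0.00 (3, 6, 24 and 48 h) for respiratory chain subunits. They were -0.43 and -0.10 (6 and 24 h) for all members, -0.39 and -0.10 (6 and 24 h) for the large subunit, -0.11 (24 h) for the small subunit and 0.099 (48 h) for synthetases. Ratios that turned positive were 0.12 (3 h) for MRPL44, 0.53 and 0.54 (3 and 6 h) for MRPS18C, 0.68 (6 h) for MRPL12 and 0.48 and 0.46 (24 and 48 h) for MRPL23. With no _x_at or _s_at probe sets (42 members), members higher numbered 1 (1 h) and members lower numbered 3, 7, 1 and 1 (3, 6, 24 and 48 h). Medians were -0.45 (6 h) for the large subunit, -0.41 and -0.23 (24 and 48 h) for subunits with other names and -0.11 (24 h) for mitochondrial DNA genes. Ratios that turned positive were 0.68 (6 h) for MRPL12, 0.48 and 0.46 (24 and 48 h) for MRPL23 and 0.031 (24 h) for MRPL35. With the 1 h array as baseline, members lower numbered 3, 8, 5 and 6 (3, 6, 24 and 48 h) and members higher numbered 1 (48 h). Medians were -0.30, -0.37, -0.12 and -0.11 (3, 6, 24 and 48 h) for all members, -0.31, -0.40, -0.13 and -0.097 (3, 6, 24 and 48 h) for the large subunit, -0.21, -0.31, -0.00783 and -0.11 (3, 6, 24 and 48 h) for the small subunit and -0.18, -0.41 and -0.026 (3, 6 and 24 h) for translation factors. They were -0.047 (3 h) for synthetases, -0.16, -0.25, -0.083 and -0.046 (3, 6, 24 and 48 h) for respiratory chain subunits and -0.032, -0.29 and -0.12 (6, 24 and 48 h) for subunits with other names. With a 1.5-fold size rule, members lower numbered 15, 29, 43, 25 and 24 (1, 3, 6, 24 and 48 h) and members higher numbered 2 and 1 (1 and 48 h). With a 3-fold size rule, members lower numbered 2, 5, 4 and 4 (3, 6, 24 and 48 h). Shares of all measured genes were not computed under either size rule, the pseudocount or the probe set settings, so those counts have no background. Against the 1 h array the share was computed at 6 h alone, at 3.19%.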
